A study of Mus musculus with 30 samples.

Results

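The 6 genes described here encode 2 related zinc-finger proteins, ZFP423 and ZFP521, and the 4 early B-cell factors, EBF1 to EBF4. They were selected from the 55401 genes counted in each library because Zfp423 rose during SRCAP depletion and in wtSRCAP cells treated with IAA. The values of Zfp423 in the depletion time course and in every contrast that involves wtSRCAP libraries are therefore given as a description, without a test. For the other 5 genes, and for Zfp423 in the remaining libraries, the edgeR quasi-likelihood test was used. SRCAP is the ATPase of the complex that exchanges H2A for the variant H2A.Z in nucleosomes.

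ZFP423 carries a long array of zinc fingers and binds DNA, SMAD proteins downstream of BMP receptors, retinoic acid receptors and the EBF proteins, which are also named O/E factors. It is known for the commitment of preadipocytes and for the development of the cerebellum, and its gene is mutated in a ciliopathy. ZFP521 is its paralogue, binds EBF1 and opposes it, and acts in haematopoietic and neural progenitors. The EBF proteins bind a palindromic DNA motif as dimers. EBF1 specifies B lymphocytes, EBF2 acts in brown fat and in neurons, EBF3 in neurons and muscle, and EBF4 was described in olfactory neurons.

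Nuclear RNA was sequenced from mouse embryonic stem (ES) cells in 30 libraries, 2 for each of 15 groups, and reads were counted per gene on exons and on introns. SYAT cells are 1 clone of the CGR8 line with SRCAP-YPet-AID on both alleles and the plant protein OsTir1 driven by the EF1a promoter, so that indole-3-acetic acid (IAA, 500 µM) triggers SRCAP degradation. SYAT controls were kept in auxinole, a Tir1 inhibitor, and the time course had 2, 4, 6 or 8 h of IAA. Sorted SYAT cells also carried mCherry-MD and were separated into early G1 (EG1) and late G1 (LG1) after 1 h of IAA or none. wtSRCAP and cdSRCAP cells are SYAT cells with rtTA3G and doxycycline-induced wild-type or catalytically dead SRCAP fused to mCherry, 1 clone of each, given 1 µg/mL doxycycline for 24 h in every group and sorted for mCherry, with IAA for 4 h or auxinole. Parental CGR8 cells, which have no degron, were left as controls or given IAA for 4 h. All groups were grown in serum and LIF.

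Exon columns summed to 45617992 to 60214521 counts in CGR8 cells, 17540823 to 22873893 in the time course, 19740778 to 26672402 in sorted cells and 12236493 to 26369773 in wtSRCAP and cdSRCAP cells. The 8 ES cell markers summed to 1508 to 4162 CPM (counts scaled to library size) and none was at 0, against 4.82 to 22.4 CPM for primitive endoderm markers and 0.583 to 4.91 CPM for trophectoderm markers. Neural markers summed to 47.7 to 184 CPM, fibroblast and mesenchyme markers to 5.96 to 51.5 CPM and mesoderm markers to 4.79 to 24.0 CPM. Intron columns of the time course and of EG1 also held exonic reads, since 50.8 to 52.1% and 44.8 to 45.6% of single-exon genes had intron counts there, against at most 0.100% elsewhere. Introns were therefore not compared between EG1 and LG1. In the intron column of the time course, genes over 100 kb held 10.7 to 13.8% of counts in 8 libraries, but 15.7% in replicate 2 at 4 h and 18.4% in replicate 2 at 8 h. All comparisons stayed within a count table, and in bulk nuclei fewer expressing cells cannot be told apart from less RNA per cell.

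Zfp423 (ENSMUSG00000045333.15) lies on chr8:87661810-87959595 (minus strand, mm10), with 297786 bases and 5608 of them exonic. Of its 7 transcripts in GENCODE vM21, 6 begin inside the gene, and RefSeq gives the gene start and 1 of these internal starts. The 250 bases before both are shown because the gain in Zfp423 RNA is the finding the other values are read against. They are written on the gene strand, from RefSeq on GRCm38.p6, and capitals mark the GC box GGGCGG, searched on both strands.
Zfp423, upstream of the gene (chr8:87959596-87959845, minus strand): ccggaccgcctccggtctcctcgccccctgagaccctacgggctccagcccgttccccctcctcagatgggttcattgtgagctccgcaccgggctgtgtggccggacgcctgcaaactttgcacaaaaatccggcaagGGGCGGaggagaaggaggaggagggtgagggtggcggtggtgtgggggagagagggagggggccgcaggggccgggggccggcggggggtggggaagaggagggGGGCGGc
Zfp423, upstream of the internal start (chr8:87804440-87804689, minus strand, intronic): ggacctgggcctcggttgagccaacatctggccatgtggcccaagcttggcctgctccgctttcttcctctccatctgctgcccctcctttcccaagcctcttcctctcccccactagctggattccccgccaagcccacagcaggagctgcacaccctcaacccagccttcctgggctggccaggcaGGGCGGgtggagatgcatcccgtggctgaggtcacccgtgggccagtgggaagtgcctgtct
The upstream window held 18 CpG and 71.6% G or C, and the internal window 6 CpG and 64.8%, with a median of 6 CpG over 32851 windows of this length. The GC box occurred in 32.7% of those windows, with 2 matches in the upstream window of Zfp423 and 1 in the internal one. The EBF palindrome TCCCNNGGGA occurred in 0.779% of all windows and in neither window of Zfp423, which says only that these letters are not in these bases.

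The other genes, except Ebf4, are also longer than 100 kb. Ebf1 spans chr11:44617317-45008091 (plus strand, 390775 bases), Ebf2 chr14:67233292-67430918 (plus strand, 197627 bases), Ebf3 chr7:137193673-137314445 (minus strand, 120773 bases) and Ebf4 chr2:130295169-130370481 (plus strand, 75313 bases). Zfp521 lies on chromosome 18 and spans 285775 bases. Antisense genes overlap Ebf1, Ebf2 and Ebf3, and since the strand setting of the counting is not given in the sources used here, low values of these 3 genes could hold reads of either strand.

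Zfp423 was the most abundant of the 6 genes in control ES cells on the scale of exon CPM per kilobase of exon. Its control level was 14.8 in CGR8, 9.68 in SYAT, 5.62 in EG1, 5.95 in LG1, 18.3 in wtSRCAP and 24.8 in cdSRCAP cells (means, n = 2 each). Zfp521 was at 1.35 in EG1 and 1.58 in LG1 controls, and at 0.187 in CGR8 and 0.420 in SYAT controls. Ebf1 was between 0.154 in wtSRCAP and 0.425 in cdSRCAP controls. The order of these neighbours was not resolved in any control group. Zfp521 and Ebf1 overlapped in CGR8 controls (0.187 ± 0.005 and 0.174 ± 0.019, SD, n = 2). In SYAT controls they were 0.420 ± 0.129 and 0.371 ± 0.010, and in cdSRCAP controls 0.483 ± 0.060 and 0.425 ± 0.196. Zfp521 and Ebf4 overlapped in EG1 controls (1.35 ± 0.12 and 1.22 ± 0.66) and in LG1 controls (1.58 ± 0.095 and 1.05 ± 0.57). In wtSRCAP controls these genes were at 0.576 ± 0.422 and 0.230 ± 0.127. Ebf2 and Ebf3 had means of at most 0.0944 and 0.0546 in control groups, near the limit of detection. The 4 tables were normalized separately, so these levels are set side by side without a test.

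**Figure D1:**
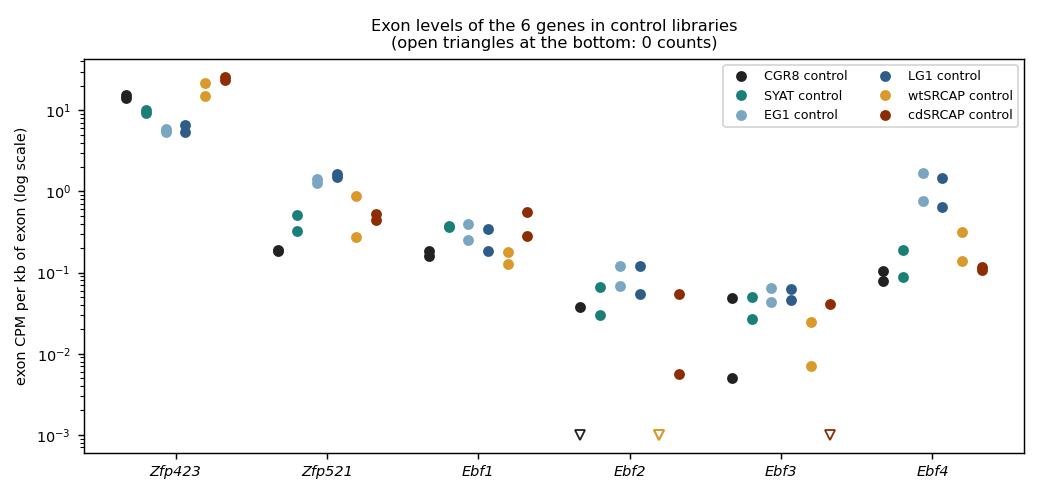
Exon level of the 6 genes in the 12 control libraries, in CPM per kb of exon on a log scale, with 1 point per library and colours for the 6 control groups. Open triangles at the bottom mark libraries with 0 counts, which occur for Ebf2 and Ebf3. Zfp423 sits above the other 5 genes in every control group.

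In the SRCAP depletion time course, Zfp423 was the member with the clear gain, and this gain was the reason for its choice. Exon CPM were 52.6 and 55.9 in the controls, 61.0 and 74.6 at 2 h of IAA, 104 and 111 at 4 h, 142 and 145 at 6 h, and 134 and 144 at 8 h. Both libraries of each time point exceeded both controls, and the increase levelled off between 6 and 8 h. The means were 54.3 ± 2.30 CPM in control and 143 ± 2.27 CPM at 6 h (SD, n = 2), a ratio of 2.64, after 1.25 at 2 h and 1.99 at 4 h. At 8 h the ratio was 2.56. At 6 h Zfp423 was 270th of 19205 genes in exon log2 fold change. All time points share the same 2 control libraries.

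Intronic Zfp423 RNA, which is closer to ongoing transcription, was already higher at 2 h. Intron CPM were 118 and 137 in the controls, 220 and 261 at 2 h, 268 and 438 at 4 h, 389 and 384 at 6 h, and 248 and 510 at 8 h. No IAA library overlapped the controls. Since this column also held exonic reads, exon counts were subtracted from it as an alternative, which gave log2 fold changes of 1.13, 1.50, 1.61 and 1.25 at 2, 4, 6 and 8 h. As deposited, the log2 fold change in introns was 0.91 at 2 h, when that of exons was 0.32, and 1.60 at 6 h, when that of exons was 1.40. The replicates at 4 and 8 h were far apart. Without replicate 2 the intron log2 fold change of Zfp423 was 1.05 at 4 h instead of 1.46, and 0.97 at 8 h instead of 1.57, and without replicate 1 at 8 h it was 2.00. These replicates 2 are the libraries with the higher share of long genes. Over the 2140 long genes tested, the median intron log2 fold change was 0.10, 0.17, 0.09 and 0.29 at 2, 4, 6 and 8 h, and the part of this shift in the members' intron values was not tested.

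**Figure D2:**
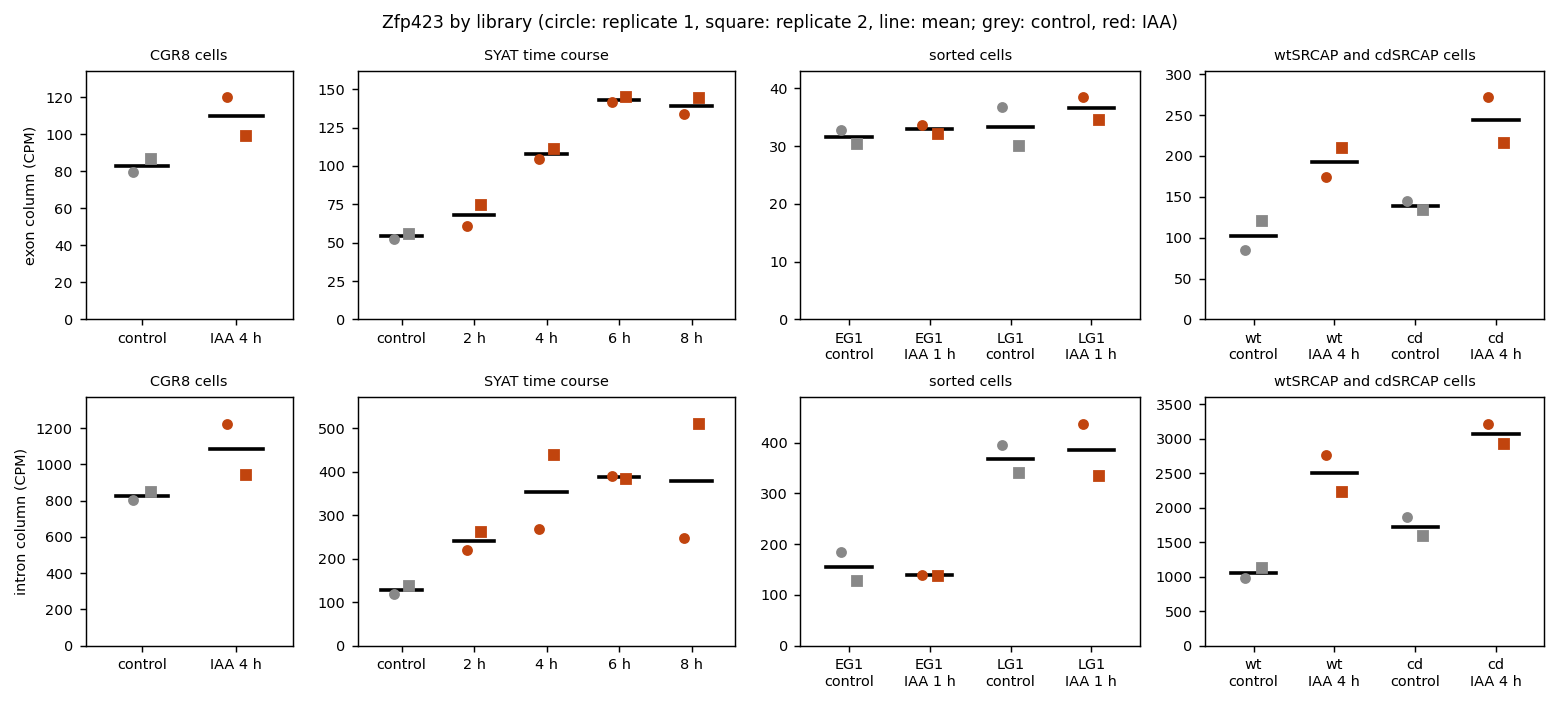
Zfp423 in CPM in every library, with the exon column above and the intron column below. Circles are replicate 1, squares replicate 2, lines means, grey control and red IAA. In the time course all IAA libraries lie above both controls in both columns, whereas the sorted cells overlap.

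The EBF genes had far fewer counts than Zfp423, and in the time course only Ebf1 had exon counts over 20 in a library. Ebf1 exon counts were 73 and 86 in the controls, 65 and 69 at 2 h, 100 and 148 at 4 h, 105 and 50 at 6 h, and 103 and 145 at 8 h. Replicate 2 at 6 h was below the controls in exon CPM, with 3.07 against 3.55 and 3.69, while the libraries at 4 and 8 h were above them. The exon log2 fold change of Ebf1 was 0.68 (SE 0.32) at 4 h and 0.60 (SE 0.32) at 8 h, with adjusted p = 0.579 and 0.447 by edgeR.

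Ebf1 introns differed from the controls in the same direction at every time, but their replicates at 4, 6 and 8 h were far apart. Intron CPM of Ebf1 were 14.0 and 16.7 in the controls, 24.9 and 27.8 at 2 h, 22.7 and 48.3 at 4 h, 42.6 and 21.1 at 6 h, and 23.6 and 59.7 at 8 h. All 8 IAA libraries exceeded both controls. The log2 fold change was 0.78, 1.21, 1.05 and 1.44 at 2, 4, 6 and 8 h, and the 8 h value (SE 0.53) had an unadjusted p = 0.0263 and an adjusted p = 0.304 by edgeR. Without replicate 2 at 8 h it was 0.63, and without replicate 1 at 8 h 1.96. The libraries with the highest Ebf1 intron CPM, replicates 2 at 8 and 4 h, were also those with the highest share of long genes.

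Ebf3 had few counts, and its introns were again higher after IAA. Intron counts of Ebf3 were 12 and 29 in the controls, 37 and 46 at 2 h, 20 and 59 at 4 h, 37 and 34 at 6 h, and 36 and 91 at 8 h. In CPM 1 library at 4 h (1.06) lay between the controls (0.597 and 1.16) and the other 7 IAA libraries lay above them. The intron log2 fold change of Ebf3 was 1.18 (SE 0.51) at 6 h and 1.50 (SE 0.51) at 8 h, with unadjusted p = 0.0496 and 0.0182 and adjusted p = 0.344 and 0.271 by edgeR. Its exon counts were 6 to 14 per library. Ebf2 had 2 to 9 exon counts per library, was not tested in exons, and its intron log2 fold changes of 0.32 to 0.73 had unadjusted p of at least 0.193 by edgeR.

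**Figure D3:**
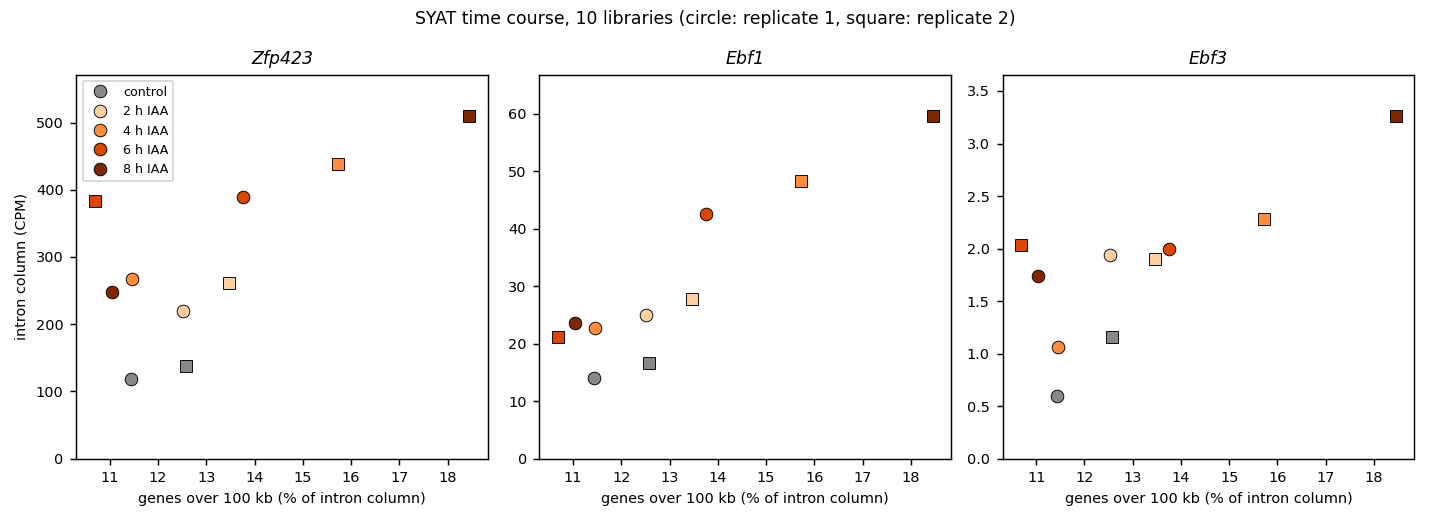
Intron CPM of Zfp423, Ebf1 and Ebf3 in the 10 time course libraries against the percent of intron counts in genes over 100 kb. Circles are replicate 1, squares replicate 2, and colours the time of IAA. Replicate 2 at 4 h and at 8 h are the 2 rightmost points in each panel and hold the 2 highest values of each gene.

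Zfp521 and Ebf4 had smaller values than Zfp423 in the time course, and the difference was not tested. Zfp521 exon CPM were 2.95 ± 0.91 in control and 2.74 ± 1.79 at 6 h (SD, n = 2), with log2 fold changes of -0.23 to -0.06 over the 4 time points and standard errors of 0.49 to 0.50. Its intron log2 fold changes were 0.17, 0.20, 0.40 and 0.44 at 2, 4, 6 and 8 h (SE 0.44). Ebf4 exon counts were 7 to 16 per library, and its log2 fold change of 0.97 at 6 h had SE 0.53 and an adjusted p = 0.391 by edgeR. In introns Ebf4 was 62 to 125 counts per library, with log2 fold changes of -0.19 to -0.05. Over the 10 libraries the Pearson correlation with Zfp423 in exon log2 CPM was 0.58 for Ebf1, 0.59 for Ebf4, -0.18 for Zfp521 and -0.05 for Ebf3, given as a description over libraries that share their time points and normalization.

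None of the other 5 genes was called in the time course at an absolute log2 fold change over 0.5 and an adjusted p under 0.05 (edgeR), and Zfp423 was not tested there. This held for 16 exon and 20 intron tests, of which 0 and 3 had an unadjusted p under 0.05, and DESeq2 called 0 and 0. By edgeR calls were rare, at 0, 0, 0.0677 and 0.00521% of 19205 exon genes at 2, 4, 6 and 8 h. In introns they were 0, 0, 0.0136 and 0.00679% of 14719 genes at these times. DESeq2 called 0.0509, 0.859, 3.98 and 2.27% of exon genes and 0.301, 1.56, 3.66 and 2.98% of intron genes. In introns, 6.53% of all genes at 6 h and 5.67% at 8 h were higher at an unadjusted p under 0.05.

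Genes whose exon pattern over the 10 libraries was most like that of Zfp423, among 14238 protein-coding genes, included Epb41l2, Itpr3, Hmga2 and Psors1c2. Epb41l2, which encodes a protein 4.1 of the membrane skeleton, had r = 0.991 and 3507 normalized counts in control against 4539 at 6 h. Itpr3, an inositol trisphosphate receptor, had r = 0.988 and 859 against 1763. Hmga2, a chromatin protein of early development, had r = 0.982 and 476 against 897. Psors1c2 had r = 0.969. Correlations over 0.9 were reached by 0.506% of genes. Over the 8 wtSRCAP and cdSRCAP libraries these 4 genes had r of 0.72, 0.41, 0.64 and 0.09.

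Of the protein-coding genes within 500 kb of Zfp423, those tested in exons had values of both signs at 6 h. At that time Cnep1r1, the regulatory subunit of a nuclear envelope phosphatase, had a log2 fold change of -0.57 (adjusted p = 0.165, edgeR), Brd7, a bromodomain protein, -0.30, Adcy7, an adenylate cyclase, -0.20 and Tent4b, a poly(A) polymerase, -0.16. Heatr3, a factor for ribosomal protein import, had 0.44. Cbln1, a cerebellar synapse protein, had 0.16, 0.61, 0.50 and 0.23 at 2, 4, 6 and 8 h. After IAA it had 0.99 (SE 0.43) in wtSRCAP and 1.13 (SE 0.42) in cdSRCAP cells, with adjusted p = 0.666 and 0.808 by edgeR, and its difference from Zfp423 was not tested. The gene 4933402J07Rik was not tested in exons. In time course introns at 6 h Cnep1r1 had -1.04 (SE 0.23, adjusted p = 0.124, edgeR) and Tent4b -0.04. Heatr3 had 0.39, Adcy7 9.26 (SE 4.04) and 4933402J07Rik -0.21 (SE 1.3), and none of these was called. Cbln1 and Brd7 were not tested in those introns.

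CGR8 cells, in which IAA has no degron to act on, address what IAA does without SRCAP depletion. Both Zfp423 and Ebf1 had higher values in the IAA libraries of these cells. Exon CPM of Zfp423 were 79.5 and 86.5 in the controls and 120 and 99.3 after 4 h of IAA, without overlap. The log2 fold change was 0.40 (SE 0.15) in exons and 0.39 (SE 0.15) in introns, with unadjusted p = 0.0240 and 0.0302 and adjusted p = 0.540 and 0.925 by edgeR. In SYAT cells the 4 h values of Zfp423 were 0.99 in exons and 1.46 in introns, in another table, and the difference between the lines was not tested.

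Ebf1 exon counts in CGR8 cells were 67 and 98 in the controls and 200 and 279 after IAA. Exon CPM of Ebf1 were 1.57 and 1.82 against 3.69 and 4.50, so that the groups did not overlap and the IAA libraries were higher. The log2 fold change of Ebf1 was 1.27 (SE 0.30), with an unadjusted p = 0.00252 and an adjusted p = 0.540 by edgeR. Intron CPM of Ebf1 were 17.5 and 57.7 in the controls and 70.9 and 69.7 after IAA, with a log2 fold change of 0.88 and an unadjusted p = 0.0747. Control replicate 1 was the low library. Without control replicate 2 the log2 fold change of Ebf1 was 1.39 in exons and 2.01 in introns, and without control replicate 1 it was 0.28 in introns. In SYAT cells the 4 h values of Ebf1 were 0.68 (SE 0.32) in exons and 1.21 (SE 0.53) in introns, in another table. This difference between the lines was not tested.

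**Figure D4:**
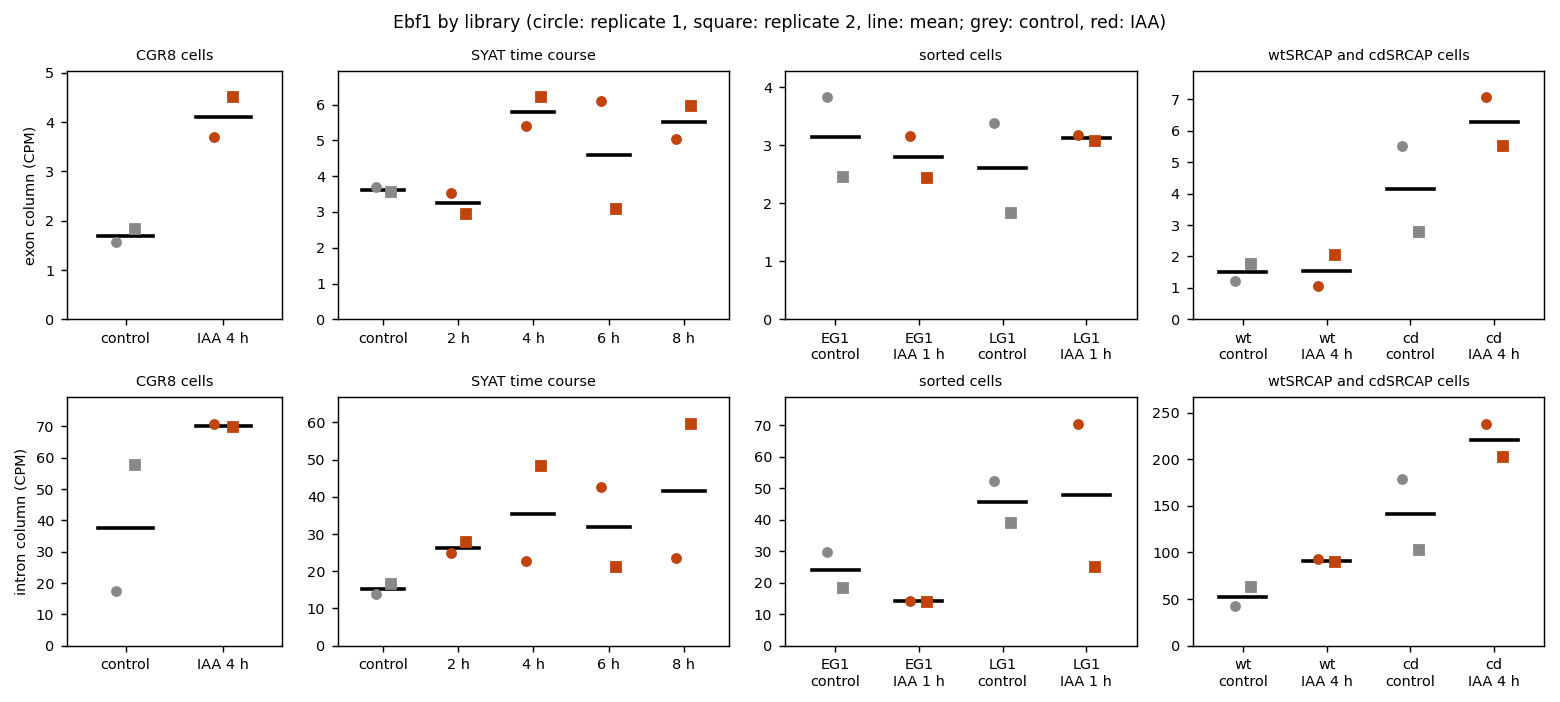
Ebf1 in CPM in every library, with the exon column above and the intron column below. Circles are replicate 1, squares replicate 2, lines means, grey control and red IAA. In CGR8 cells the IAA libraries lie above the controls in both columns, and in the right panels all 4 cdSRCAP libraries lie above all 4 wtSRCAP libraries.

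No other member had an unadjusted p under 0.05 in CGR8 cells. Zfp521 exon counts were 55 and 72 in the controls and 56 and 48 after IAA, with a log2 fold change of -0.54 (SE 0.44). Ebf4 introns had 20.9 and 19.5 CPM in the controls and 10.9 and 13.2 CPM after IAA, with a log2 fold change of -0.74 (SE 0.35), an unadjusted p = 0.0640 and an adjusted p = 0.925 by edgeR. Ebf2 and Ebf3 had 0 to 24 exon counts per library. By edgeR 0 of 5 exon and 0 of 5 intron tests of members passed in CGR8 cells, 2 and 1 had an unadjusted p under 0.05, all higher after IAA, and DESeq2 called 0 and 0. Over all genes 0.00988% in exons and 0.022% in introns passed by edgeR, and 5.04% and 2.57% were higher at an unadjusted p under 0.05. DESeq2 called 0.962% of exon and 0.186% of intron genes.

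In cells sorted in G1 after 1 h of IAA, the Zfp423 values of treated and control cells overlapped. Exon CPM of Zfp423 were 32.7 and 30.3 in EG1 controls, 33.7 and 32.2 in EG1 with IAA, 36.8 and 29.9 in LG1 controls and 38.5 and 34.6 in LG1 with IAA. The IAA range overlapped the control range in EG1 and in LG1. The log2 fold change after IAA was 0.06 (SE 0.15, unadjusted p = 0.681) in EG1 and 0.13 (SE 0.15, unadjusted p = 0.404) in LG1 by edgeR, and the difference between these responses was 0.07 (SE 0.21, unadjusted p = 0.756). EG1 and LG1 controls differed by -0.08 (SE 0.15). In introns the values were -0.17 (SE 0.23) in EG1 and 0.07 (SE 0.23) in LG1.

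None of the other 5 genes passed the thresholds in sorted cells. Ebf2 exons had a log2 fold change of 0.83 (SE 0.48, unadjusted p = 0.125, edgeR) in EG1 after IAA. Zfp521, at 9.52 ± 0.84 exon CPM in EG1 and 11.1 ± 0.67 in LG1 controls (SD, n = 2), had log2 fold changes of -0.11 (SE 0.17) and 0.02 (SE 0.17) after IAA, and -0.43 (SE 0.28) in EG1 introns. Ebf1 introns in EG1 were 29.8 and 18.4 CPM in the controls and 14.3 and 13.8 CPM with IAA, which was lower in both libraries, with a log2 fold change of -0.78 (SE 0.48) and an unadjusted p = 0.144 by edgeR. The long genes moved the same way in EG1, where 13.3% of the 2605 tested had an intron log2 fold change above 0 and the median was -0.22, and their part in the Ebf1 value was not tested. Ebf4 had more exon counts in replicate 1 (157, 99, 96 and 102) than in replicate 2 (62, 41, 45 and 43) of all 4 groups.

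At the thresholds used for sorted cells, an absolute log2 fold change over 0.25 and an unadjusted p under 0.05, edgeR called 0 of 18 exon and 0 of 12 intron tests of members, and DESeq2 0 and 0. In all genes these edgeR calls made up 1.22% of exon tests in EG1, 1.02% in LG1 and 1.44% between EG1 and LG1 controls. In introns they made up 2.28% in EG1 and 3.94% in LG1. DESeq2 called 0.239, 0.111 and 0.37% of exon and 1.58 and 2.41% of intron genes in the same contrasts.

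The wtSRCAP and cdSRCAP cells ask whether SRCAP supplied from a transgene, with or without its catalytic activity, alters the response to depletion. Zfp423 was higher after IAA in both clones. Exon CPM were 85.0 and 120 in wtSRCAP controls, 174 and 210 in wtSRCAP with IAA, 145 and 133 in cdSRCAP controls, and 272 and 215 in cdSRCAP with IAA. The IAA libraries of each clone exceeded its own controls, and the cdSRCAP controls exceeded the wtSRCAP controls. Intron CPM were 981 and 1122, then 2766 and 2228 in wtSRCAP cells, and 1865 and 1589, then 3220 and 2922 in cdSRCAP cells.

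In wtSRCAP cells the log2 fold change of Zfp423 after IAA was 0.91 in exons and 1.25 in introns, which is the contrast it was chosen on. In cdSRCAP cells, whose IAA response the choice did not use, it was 0.81 in exons (SE 0.24, unadjusted p = 0.00784, adjusted p = 0.735) and 0.83 in introns (SE 0.18, unadjusted p = 0.00126, adjusted p = 0.121) by edgeR. DESeq2 gave 0.81 in introns with an adjusted p = 4.21e-04, a call that 1.5% of 10312 genes reached. cdSRCAP minus wtSRCAP was 0.44 in exons and 0.72 in introns in controls, and 0.34 and 0.30 with IAA. The response of cdSRCAP cells minus that of wtSRCAP cells was -0.10 in exons and -0.42 in introns.

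Of the members tested, Ebf1 had the largest difference between the 2 clones. Exon counts were 19 and 39 in wtSRCAP controls, 11 and 52 in wtSRCAP with IAA, 73 and 72 in cdSRCAP controls, and 135 and 123 in cdSRCAP with IAA. Intron CPM of Ebf1 were 42.1 and 63.0, then 92.9 and 89.7 in wtSRCAP cells, and 179 and 103, then 238 and 202 in cdSRCAP cells. All 4 cdSRCAP libraries lay above all 4 wtSRCAP libraries in both columns.

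Between control cells the log2 difference of Ebf1, cdSRCAP minus wtSRCAP, was 1.43 in exons (SE 0.49, unadjusted p = 0.0159, adjusted p = 1.000) and 1.42 in introns (SE 0.28, unadjusted p = 5.39e-04, adjusted p = 0.140) by edgeR. With IAA it was 1.96 in exons (SE 0.49, unadjusted p = 0.00278, adjusted p = 0.951) and 1.27 in introns (SE 0.27, unadjusted p = 0.00105, adjusted p = 0.178) by edgeR. DESeq2 called both intron differences, with 1.18 (adjusted p = 6.24e-04) and 1.099 (adjusted p = 0.00231), as it did 0.907% and 1.13% of genes. Without cdSRCAP control replicate 1 the control difference of Ebf1 was 0.88 in exons and 0.93 in introns, and without replicate 2 it was 1.84 and 1.76. Each genotype is 1 clone, so a difference between clones and an effect of the catalytic mutation cannot be told apart. Long genes had a median intron difference of 0.16 in controls and 0.21 with IAA.

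Within each clone Ebf1 introns were also higher after IAA. The log2 fold change was 0.79 (SE 0.28) in wtSRCAP and 0.65 (SE 0.27) in cdSRCAP cells, with unadjusted p = 0.0188 and 0.0367 and adjusted p = 0.284 and 0.406 by edgeR. The difference between these responses was -0.15 (SE 0.38, unadjusted p = 0.712). In exons the log2 fold change of Ebf1 was 0.09 in wtSRCAP and 0.62 in cdSRCAP cells.

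Zfp521 introns were higher after IAA in cdSRCAP cells. Intron counts were 167 and 167 in the controls and 468 and 457 with IAA, and CPM were 42.7 and 33.1 against 115 and 87.0, without overlap. The log2 fold change of Zfp521 was 1.41 (SE 0.57, unadjusted p = 0.0343, adjusted p = 0.393) by edgeR. In wtSRCAP cells replicate 1 was the higher library in both groups, with 93.8 and 35.5 CPM in controls and 182 and 49.1 CPM with IAA, and the log2 fold change was 0.81 (SE 0.57). Exon log2 fold changes of Zfp521 were 0.53 (SE 0.66) and 0.32 (SE 0.66) in the 2 clones, and the difference between the intron responses was 0.60 (SE 0.80).

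Ebf2 had 0 exon counts in all 4 wtSRCAP libraries, where a count of 0 allows up to 3 counts (counting error only). That is 0.114 to 0.245 CPM on library totals without TMM scaling, unlike the other CPM values. Its exon counts in the cdSRCAP libraries were 1 to 8. Ebf3 had 0 to 7 exon counts, and neither gene was tested in this table. Ebf4 had 5 to 19 exon counts per library and log2 fold changes of 0.36 (SE 0.89) and 0.88 (SE 0.92) after IAA.

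By edgeR 0 of 13 exon and 0 of 13 intron tests of members passed in this table, 3 and 6 had an unadjusted p under 0.05, all in the higher direction, and DESeq2 called 0 and 3. In exons, 0.00523% of genes passed in wtSRCAP with IAA, 0% in cdSRCAP with IAA, 0% between control clones and 0.00523% between clones with IAA. In introns the edgeR shares were 0.299%, 0.236%, 0.102% and 0.0157%. DESeq2 called 0.0965, 0.0426, 0.175 and 0.0183% of exon genes and 2.1, 1.5, 0.907 and 1.13% of intron genes in these contrasts. Genes higher at an unadjusted p under 0.05 made up 1.65% in cdSRCAP with IAA, 2.5% between control clones and 2.84% between clones with IAA in exons, and 5.76% in wtSRCAP with IAA, 3.78%, 4.91% and 5.82% in introns.

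**Figure D5:**
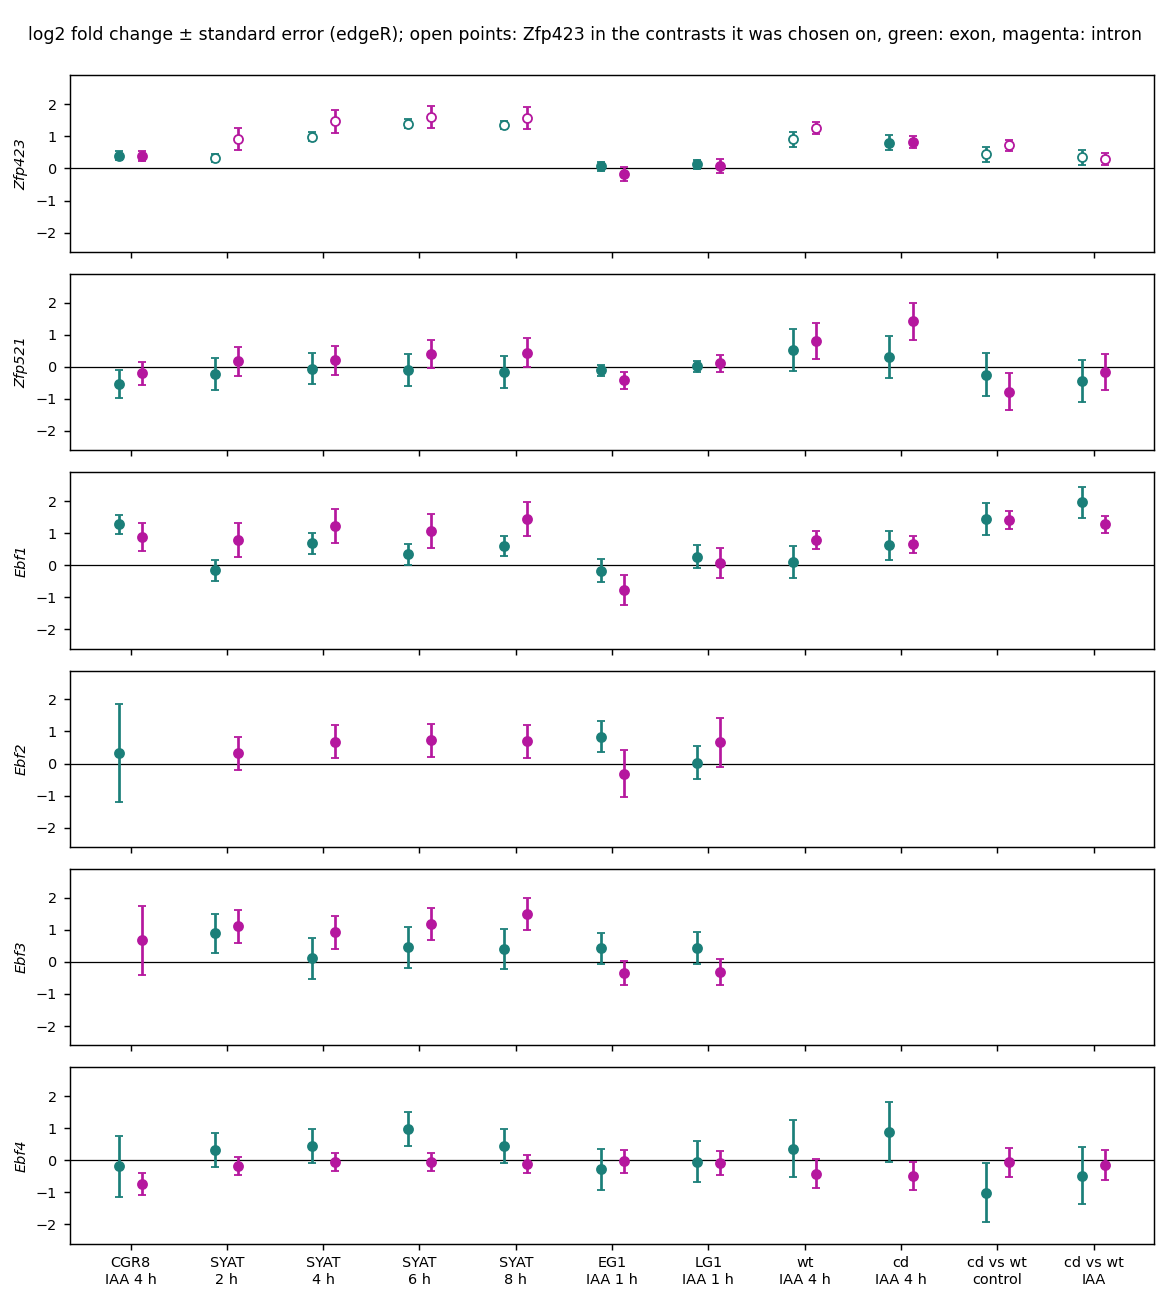
log2 fold change with its standard error (edgeR) of each member in 11 contrasts, exon column in green and intron column in magenta, with a panel per gene. Open points mark Zfp423 in the contrasts it was chosen on, and genes that were not tested have no point. Ebf1 stands above 0 in both columns between the cdSRCAP and wtSRCAP clones.

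Markers of fibroblasts and mesenchyme, in which Zfp423 is known to be expressed, were higher together with Zfp423 in some groups, and so were those of mesoderm and of other cell types. The 6 listed markers summed to 24.1 to 31.7 CPM in SYAT controls and 37.3 to 48.0 CPM at 6 h. At 2, 4 and 8 h they summed to 28.7 to 28.8, 30.1 to 40.2 and 29.9 to 38.2 CPM, which overlapped the controls. They summed to 5.96 to 6.49 CPM in wtSRCAP controls and 13.5 to 16.6 CPM with IAA. In cdSRCAP cells they summed to 8.66 to 9.37 and 10.5 to 11.5 CPM, and in CGR8 cells to 14.5 to 15.8 and 15.8 CPM. The 5 mesoderm markers summed to 10.1 to 13.7 CPM in SYAT controls and 15.03 to 24.04 CPM in the 8 IAA libraries of the time course, without overlap. Their sums were 5.00 to 7.45 and 8.65 to 13.5 CPM in wtSRCAP, 7.68 to 7.82 and 11.8 to 12.7 CPM in cdSRCAP, and 4.79 to 7.99 and 6.60 to 8.79 CPM in CGR8 cells, control first. In sorted cells they were 17.4 to 18.5 and 17.0 to 19.5 CPM in EG1 and 13.7 to 16.9 and 15.2 to 16.0 CPM in LG1. Primitive endoderm markers summed to 11.85 to 14.37 CPM in SYAT controls, 15.17 to 15.20 at 6 h and 14.79 to 16.54 at 8 h. Trophectoderm markers summed to 1.07 to 2.73 CPM in these controls and 2.96 to 4.91 at 6 h. Both overlapped the controls at the other times, and neural and ES cell markers did so at every time. In wtSRCAP cells ES cell markers summed to 2447 to 2749 CPM in controls and 3076 to 3274 with IAA. The part of these marker groups in the members' values was not tested.

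The partners and targets of these factors were taken from lists of 63 genes. In exons at 6 h, edgeR called 0 of the 52 tested, 14 were higher and 1 lower at an unadjusted p under 0.05, against 7.93% of all genes higher, and 40 had a log2 fold change above 0, while the median over all genes was 0.01. DESeq2 called 1, Cyp26a1, the retinoic acid hydroxylase (0.96 after shrinkage, adjusted p = 0.00212), as it called 3.98% of 14315 genes, and Cyp26a1 is named here after its value was seen. Of SMAD and BMP signalling genes 10 of 15 were above 0, with a median of 0.29, and of retinoic acid receptor genes and targets 10 of 10, with a median of 0.37. Dhrs3, a retinaldehyde reductase, had 1.84 (adjusted p = 0.182, edgeR). Of NuRD complex genes 11 of 12 were above 0, with a median of 0.27, led by Mta3 (0.47) and Mbd3 (0.43). These values rest on 1 library. Without replicate 1 at 6 h, when 15.4% of all genes were called, Mta3 had 0.67 and Mbd3 0.73, and without replicate 2 they had 0.24 and 0.06. The pair at 6 h also differed in the summed NuRD genes, with 3796 and 4745 CPM, and in the ES cell markers, with 1699 and 2720 CPM. Its sums were 387 and 586 CPM for the retinoic acid genes, and 757 and 918 CPM for the SMAD and BMP genes. Exonic Zfp423 at 6 h was 1.42 and 1.39 without replicate 1 and without replicate 2. Cep290, the ciliary partner of ZFP423, had -0.80 (adjusted p = 0.180, edgeR), and Parp1 0.26. Of the targets of EBF1 in B cells Blnk had 0.68 and Cd79b -0.55, and of olfactory neuron genes Gnal had -0.58 and Adcy3 0.26. Hey1, a Notch target, had -0.15. Id2, a BMP target, had 0.35, 0.34, -0.15 and 0.36 at 2, 4, 6 and 8 h, and at 6 h -0.73 without replicate 1 and 0.26 without replicate 2.

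Prdm16, a zinc-finger regulator of brown fat that acts with EBF2 there, was the only listed gene called on adjusted p by edgeR. It was 1 of 36 listed genes tested in introns between control clones, where edgeR called 0.102% of all genes. Its intron CPM were 14.6 and 21.4 in wtSRCAP controls and 83.0 and 55.5 in cdSRCAP controls, and 36.6 and 33.4 against 118 and 97.8 with IAA. The cdSRCAP libraries were higher in both treatments, as for Ebf1, and again a difference between clones and the catalytic mutation cannot be told apart. The intron log2 difference between control clones was 1.94 (SE 0.28, adjusted p = 0.0455, edgeR), and in exons it was 0.60 (SE 0.42). DESeq2 also called it (1.54, adjusted p = 5.01e-06), as it did 0.907% of genes. Without the filter edgeR called it too (1.91), as it did 1.26% of genes. The intron call of Prdm16 was lost with DESeq2's size factors in edgeR (1.91, adjusted p = 0.0555), with only the groups compared (1.91, adjusted p = 0.147), and without any 1 of the 4 control libraries (1.58 to 2.24). At the thresholds for sorted cells, 1 of 53 listed genes was called in exons between EG1 and LG1 controls and 2 of 50 in LG1 introns after IAA, near the shares of all genes, 1.44% and 3.94%. Hey1 was higher in EG1 than in LG1 controls in exons (3.68 and 4.30 against 2.45 and 2.43 CPM). Id2 (1.39 and 2.47 against 3.43 and 3.53 CPM) and Dhrs3 (10.3 and 10.2 against 15.5 and 21.5 CPM) were higher after IAA in LG1 introns. The Id2 values rest on 11 and 15 against 29 and 19 intron counts. In LG1 exons Id2 (36.0 and 21.0 against 36.2 and 24.5 CPM) and Dhrs3 (3.18 and 1.73 against 3.665 and 2.89 CPM) overlapped.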

How the data were processed

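Nuclear RNA-seq counts of 30 libraries in 15 groups of 2 replicates, biological duplicates per the study's methods, were read from 4 tables of 55401 genes. The authors aligned reads with STAR to mm10 and ran featureCounts for GENCODE vM25 exons and for gene bodies without exons, and the deposited values are these raw counts in separate exon and intron columns. The submitters' processing notes also name SAMtools 1.10, Picard and DESeq2. Tables of the authors' own comparisons hold fold changes and p-values and were not used. The auxinole concentration differs between the labels and the methods and is not printed.

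Symbols came from GENCODE vM21, in which 55141 identifiers matched without version and 54349 with it. Each table was fitted in R 4.3.3 with edgeR 4.0.16 (quasi-likelihood test, limma 3.58.1), separately for exons and introns, after filterByExpr by group (minimum count 10, minimum total 15) and TMM scaling. CPM are on TMM-scaled library sizes. Benjamini-Hochberg adjustment ran over all genes of a fit. Calls needed an absolute log2 fold change over 0.5 and an adjusted p under 0.05, or over 0.25 and an unadjusted p under 0.05 in sorted cells. Correlations used log2 CPM with a prior count of 2. The model was tested on simulated data.

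The members and lists were chosen with earlier results of these data known. Named genes were the members, protein-coding genes within 500 kb of Zfp423, the 5 most correlated with it (1 of them is not reported here), and of each list those called or otherwise up to 2 with the largest change at 6 h. Alternatives were DESeq2 1.42.0, its size factors, no filter, a replicate block, fits of only the groups compared, subtraction of exon from intron counts, and leaving out each library.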

Additional observations from a re-analysis of the deposited data

How the results depend on the processing

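By edgeR none of the 6 genes was called in the 102 tests, 52 in exons and 50 in introns, where 5 and 10 had an unadjusted p under 0.05 and DESeq2 called 0 and 3. Replicate numbers are shared between groups, but the labels do not say that they mark a batch, and with 2 replicates the pairing could not be settled: deviations of same-numbered libraries correlated at 0.07 in CGR8, -0.04 to 0.59 in time course, 0.37 to 0.59 in sorted and 0.26 to 0.38 in wtSRCAP and cdSRCAP exons. With a replicate block, edgeR called 1 in CGR8 exons (Ebf1), 1 in sorted exons (Ebf2 in EG1, unadjusted p = 0.0460), and 2 in wtSRCAP and cdSRCAP exons (Zfp423 in cdSRCAP with IAA, adjusted p = 0.0108, and Ebf1 between clones with IAA, 0.0225). In introns of those cells it called 3. DESeq2 with the replicate block called 2 in those exons and 5 in those introns. In the same fits edgeR with the block called 2.47% of CGR8 and 6.04% of EG1 exon genes, 1.81% and 1.41% of exon genes in the last 2 contrasts, and 1.07 to 2.52% of intron genes over the 4 contrasts of wtSRCAP and cdSRCAP cells. DESeq2 with the block called 1.76 to 5.38% of exon and 2.47 to 5.51% of intron genes there.

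Without the filter, 1 member was called in CGR8 exons (Ebf1) and 6 in wtSRCAP and cdSRCAP introns, where 1.26% of CGR8 exon genes and 1.26 to 2.34% of those intron genes were called. Fitting only the groups compared called 1 in those introns (Zfp521 in cdSRCAP with IAA, adjusted p = 0.0413 by edgeR). That fit called 0.648% of 12190 intron genes. DESeq2 called 3 members there, in contrasts where it called 0.907 to 1.5% of intron genes. Of the listed pathway genes, 1 was called in exons and 3 in introns. These became 14 and 12 without the filter, 19 and 7 by edgeR with the replicate block, 2 and 6 by DESeq2, 19 and 21 by DESeq2 with the replicate block, and the intron count was 1 with only the groups compared. These counts are summed over contrasts, and calls over all genes rose as well. In SYAT exons at 6 h that share was 0.0677% in the main fit and 2.47% without the filter. It was 4.29% with the edgeR block, 3.98% by DESeq2 and 7.5% by DESeq2 with the block. Fits that leave out a library have 1 library left in a group, so their calls are not counted here. The cause of the differences between settings was not tested. Over all alternatives the sign of Zfp423 changed in 2 of 119 exon and 3 of 113 intron fits, that of Ebf1 in 8 of 119 and 4 of 113, Zfp521 15 of 119 and 11 of 113, Ebf4 16 of 117 and 17 of 113, Ebf2 6 of 39 and 3 of 64, and Ebf3 5 of 68 and 1 of 73, and no called value was reversed. The Zfp423 fits in these counts include the contrasts it was chosen on, so its counts cannot be set against those of the other genes. DESeq2 was not run on differences between responses. Low counts limit Ebf2, Ebf3 and Ebf4, and 2 libraries per group limit every p-value.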
